A study of Mus musculus with 6 samples.

Results

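The primitive endoderm regulators examined here are 6 genes, Gata6, Gata4, Sox17, Sox7, Pdgfra and Foxa2, picked by name from the 30178 genes that could be read from the array. Each of them was represented by 1 array row. The embryos came from B6C3F1 x CD1 matings and were analysed as pools of 10, with 2 pools (replicates a and b) in each of 3 groups. In the anti-TEAD4 group the zygotes received mCherry-Trim21 mRNA, dextran beads and an antibody against TEAD4. In the anti-GFP group the antibody was directed against GFP, a protein that mouse embryos do not have, while the mRNA and the beads were the same. In the mCherry-Trim21 mRNA group there were only mRNA and beads. All embryos were therefore injected, and no untouched embryos enter these comparisons. All pools were lysed 72 hours after injection, and their age was recorded as 4 dpc. The blastocyst cavity was labelled normal in both control groups, and absent or small in the anti-TEAD4 group. The sample titles name blastocysts in both control groups and morulae/blastocysts in the anti-TEAD4 group, so stage and antibody cannot be told apart.

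The primitive endoderm is one of the lineages of the inner cell mass of the mouse blastocyst, and it gives rise to the yolk sac endoderm. FGF4 made by epiblast precursors activates FGF receptors on their neighbours, in which GATA6 persists and NANOG is turned off. PDGFRA, SOX17, GATA4 and SOX7 appear after GATA6, in about that order, and FOXA2 belongs to the endoderm programme that follows. TEAD4 is a transcription factor of the trophectoderm, the outer lineage that forms the cavity. In Trim-Away, an injected antibody guides the TRIM21 ubiquitin ligase to its target protein, which is then degraded by the proteasome. The comparison between the groups asks how transcripts linked to an inner lineage stood in embryos from which TEAD4 protein was to be removed. Whole embryos were pooled, so the values do not show which cells held each transcript.

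Trim-Away acts on protein, so the Tead4 transcript is no check of the labels. It measured 8.44 and 8.95 log2 units in the anti-TEAD4 pools, 9.30 and 9.16 in the anti-GFP pools, and 9.40 in both mCherry-Trim21 mRNA pools (log2 difference from both control groups −0.62, SE 0.18, limma adjusted p = 0.496). Trim21, whose sequence the injected mRNA carries, measured 12.11 and 11.47 with anti-TEAD4, 10.16 and 10.60 with anti-GFP, and 9.05 and 7.56 in the pools without antibody. The trophectoderm itself was represented by 18 genes. Of these, 16 were lower in both anti-TEAD4 pools than in all 4 control pools, against 7.68% of all genes. The list median was −1.79 against 0.06 over all genes. This list was chosen with earlier results of these data known. It holds genes that the paper reported as lower in TEAD4-depleted embryos, such as Cdx2, Gata3 and Krt8, so its count is no independent support. Anti-TEAD4 replicate a stood apart from the other arrays, with a mean correlation of 0.975 to the others across genes (0.986 to 0.989 for the other arrays). Its dim genes were also raised. The 1381 olfactory and vomeronasal receptor genes, which embryos are not known to use and which serve here as the background of the array, lay by a median of 0.25 above their control mean in that pool, and by 0.04 in anti-TEAD4 replicate b. A gene is called above background in a pool where it exceeded the 95th percentile of the receptor genes of that pool, which was 4.91 and 4.57 in the anti-TEAD4 pools, 4.45 and 4.58 in the anti-GFP pools, and 4.49 and 4.46 in the mCherry-Trim21 mRNA pools.

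By this measure the array registered Gata6 and Pdgfra, and not the other regulators. Gata6 was above background in 6 of 6 pools, by 7.81 to 8.65 log2 units. Pdgfra was above background in 6 of 6 pools too, by 0.25 to 2.86 log2 units, with the smallest margin in anti-TEAD4 replicate a. Gata4, Sox17, Sox7 and Foxa2 were under the 95th percentile of the receptor genes in every pool of every group. For those 4 genes neither presence nor absence of the transcript can be read from these values. In pooled embryos, fewer cells of a type and less RNA per cell cannot be told apart.

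**Figure D1:**
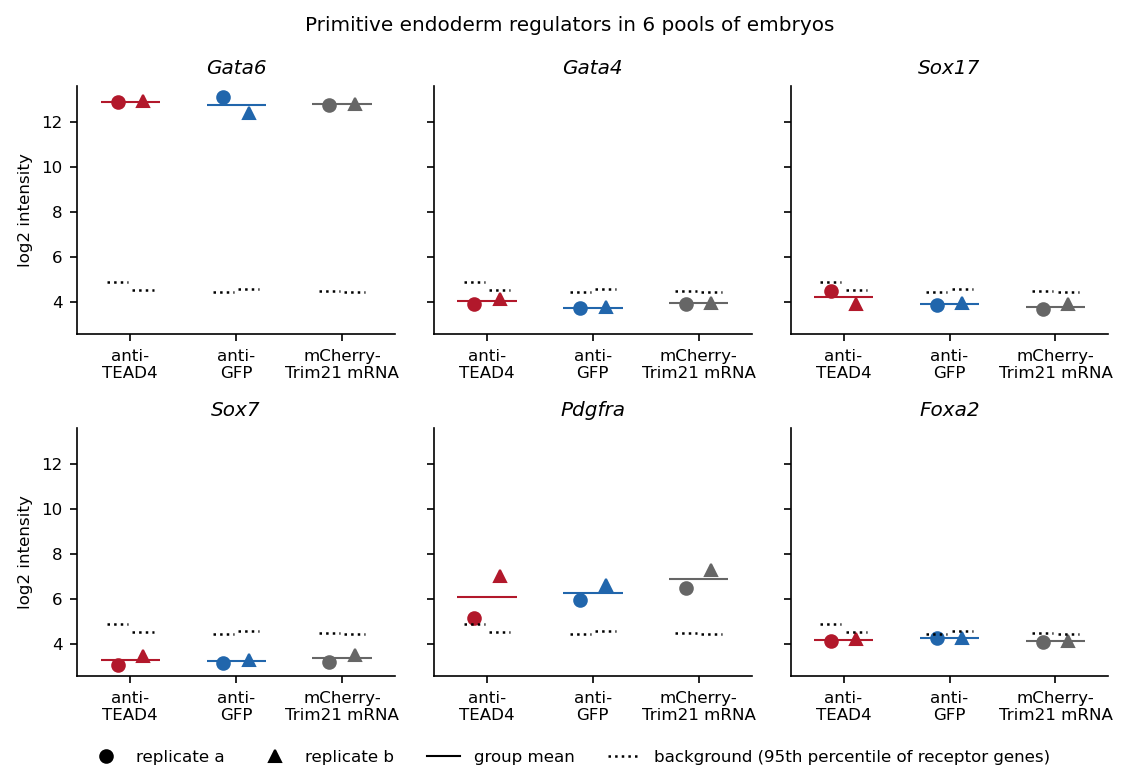
Level of each regulator (log2 intensity) in the 2 pools of the anti-TEAD4, anti-GFP and mCherry-Trim21 mRNA groups, with circles for replicate a, triangles for replicate b, horizontal lines for group means and dotted lines for the 95th percentile of the receptor genes of each pool. Gata6 lies far above the dotted lines in all 6 pools, Pdgfra is above them with a wide spread within the anti-TEAD4 group (5.16 and 7.04), and Gata4, Sox17, Sox7 and Foxa2 lie below them.

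Gata6, the earliest transcription factor of the lineage and the gene it cannot form without, was not distinguished from the controls in the anti-TEAD4 pools. It measured 12.90 and 12.92 log2 units in the anti-TEAD4 pools, 13.10 and 12.39 in the anti-GFP pools, and 12.76 and 12.82 in the mCherry-Trim21 mRNA pools. Both anti-TEAD4 pools thus lay between the anti-GFP pools, which were the highest and the lowest of all. On the linear scale the means were 7697 ± 75.4 AU with anti-TEAD4, 7074 ± 2413 AU with anti-GFP and 7084 ± 208 AU with mCherry-Trim21 mRNA (SD, n = 2 pools each). Both anti-TEAD4 pools exceeded both mCherry-Trim21 mRNA pools, by more than either pair varied within itself but by less than the anti-GFP pools differed from each other. The anti-GFP and mCherry-Trim21 mRNA means, next to each other in the order, did not differ beyond that spread. Against both control groups the fold was 1.10, with a 95% interval of 0.755 to 1.61 (log2 difference 0.14, SE 0.22, limma adjusted p = 0.827). A loss of Gata6 signal to under 0.755 of the control level was therefore outside that interval, whereas a smaller change in either direction was inside it. The log2 difference was 0.12 against mCherry-Trim21 mRNA alone (SE 0.25, limma adjusted p = 0.903) and 0.17 against anti-GFP (SE 0.25, limma adjusted p = 0.869). Between the controls, anti-GFP minus mCherry-Trim21 mRNA was −0.05 (SE 0.25, limma adjusted p = 1). Without anti-GFP replicate b, the lowest pool, anti-TEAD4 minus both control groups became −0.04 (limma adjusted p = 0.944), so that its sign rested on that pool.

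Pdgfra encodes the receptor for PDGF, which primitive endoderm precursors carry and on which their survival depends. It measured 5.16 and 7.04 log2 units in the anti-TEAD4 pools, 5.98 and 6.62 in the anti-GFP pools, and 6.52 and 7.32 in the mCherry-Trim21 mRNA pools. The lowest of the 6 values was thus in one anti-TEAD4 pool, while the other anti-TEAD4 pool exceeded 3 of the 4 control pools. Replicate b was higher than replicate a in each group, by 1.88 in the anti-TEAD4 group, 0.64 in the anti-GFP group and 0.80 in the mCherry-Trim21 mRNA group. The linear means were 83.7 ± 67.8 AU with anti-TEAD4, 80.7 ± 24.9 AU with anti-GFP and 126 ± 48.1 AU with mCherry-Trim21 mRNA (SD, n = 2 pools each). None of these neighbours differed beyond the spread of the pools. Anti-TEAD4 minus both control groups was −0.51 on the log2 scale, a fold of 0.702 with a 95% interval of 0.262 to 1.89 (SE 0.57, limma adjusted p = 0.766). The sign rested on anti-TEAD4 replicate a, the array that stood apart. Without it the difference became 0.43 (limma adjusted p = 0.847), and without anti-TEAD4 replicate b it became −1.45 (limma adjusted p = 0.0714). The log2 difference was −0.82 against mCherry-Trim21 mRNA alone (SE 0.66, limma adjusted p = 0.809) and −0.20 against anti-GFP (SE 0.66, limma adjusted p = 0.940). Anti-GFP minus mCherry-Trim21 mRNA was −0.62 (SE 0.66, limma adjusted p = 1), which lay between those values. The array row of Pdgfra also carries the symbol of the microRNA Mir7025, which RefSeq places inside the Pdgfra gene, and the signal cannot be divided between them.

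Sox17, an SRY-related factor of the maturing primitive endoderm, measured 4.50 and 3.95 log2 units in the anti-TEAD4 pools, 3.88 and 3.98 in the anti-GFP pools, and 3.70 and 3.94 in the mCherry-Trim21 mRNA pools. Its highest value was in anti-TEAD4 replicate a, where it reached the 84.6th percentile of the raised receptor genes and so remained within the background. The other anti-TEAD4 pool lay between the control values. Anti-TEAD4 minus both control groups was 0.35 on the log2 scale (SE 0.20, 95% interval −0.14 to 0.84, limma adjusted p = 0.648). Without anti-TEAD4 replicate a it was 0.08 (limma adjusted p = 0.966), and without anti-TEAD4 replicate b it was 0.63 (limma adjusted p = 0.0666).

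Gata4, the partner of Gata6 that comes on later in the same cells, measured 3.95 and 4.17 log2 units in the anti-TEAD4 pools, 3.76 and 3.79 in the anti-GFP pools, and 3.95 and 3.97 in the mCherry-Trim21 mRNA pools. The log2 difference from both control groups was 0.19 (SE 0.13, 95% interval −0.13 to 0.52, limma adjusted p = 0.670). Anti-TEAD4 replicate a overlapped with the mCherry-Trim21 mRNA pools. Foxa2, a forkhead factor of the endoderm, measured 4.17 and 4.22 in the anti-TEAD4 pools, 4.30 and 4.29 in the anti-GFP pools, and 4.13 and 4.14 in the mCherry-Trim21 mRNA pools. Its log2 difference from both control groups was −0.02 (SE 0.12, 95% interval −0.31 to 0.27, limma adjusted p = 0.956), and the anti-TEAD4 pools lay between the control groups. Sox7, an SRY-related factor that follows Sox17, measured 3.10 and 3.48 in the anti-TEAD4 pools, 3.19 and 3.30 in the anti-GFP pools, and 3.24 and 3.53 in the mCherry-Trim21 mRNA pools. Its log2 difference from both control groups was −0.03 (SE 0.17, 95% interval −0.46 to 0.41, limma adjusted p = 0.964), and here too the groups overlapped. No fold is given for these 4 genes, since both sides of each comparison were within the background.

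**Figure D2:**
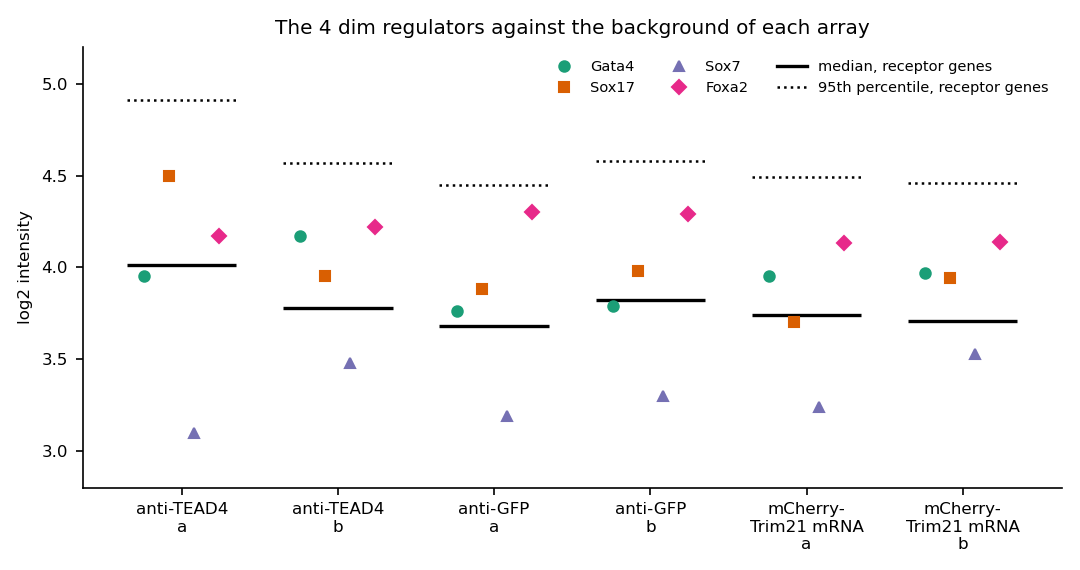
Levels (log2 intensity) of Gata4, Sox17, Sox7 and Foxa2 in each of the 6 pools, set against the median (solid line) and the 95th percentile (dotted line) of the 1381 receptor genes of the same array. All points lie under the dotted lines, and those lines are highest in anti-TEAD4 replicate a, the pool that holds the highest Sox17 value (4.50).

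Across the regulators, 0 of 6 passed limma at an adjusted p of 0.05 in any of the 4 comparisons, where the share of all genes called was 0%, and 0 of 6 had an unadjusted p under 0.05. The share of all genes with an unadjusted p under 0.05 was 8.51% against both control groups, 6.51% against mCherry-Trim21 mRNA, 6.6% against anti-GFP, and 1.09% for anti-GFP against mCherry-Trim21 mRNA. By the overlap of the pools, 0 of 6 had both anti-TEAD4 pools above all 4 controls, against 11.4% of all genes, and 0 of 6 had both below, against 7.68% of all genes. The median log2 difference of the 6 from both control groups was 0.06, the same as that of all genes, with 3 positive and 3 negative. At each of these shares taken alone fewer than 1 gene in 6 would be called, so the counts of 0 lie near the background and say nothing particular about the regulators.

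**Figure D3:**
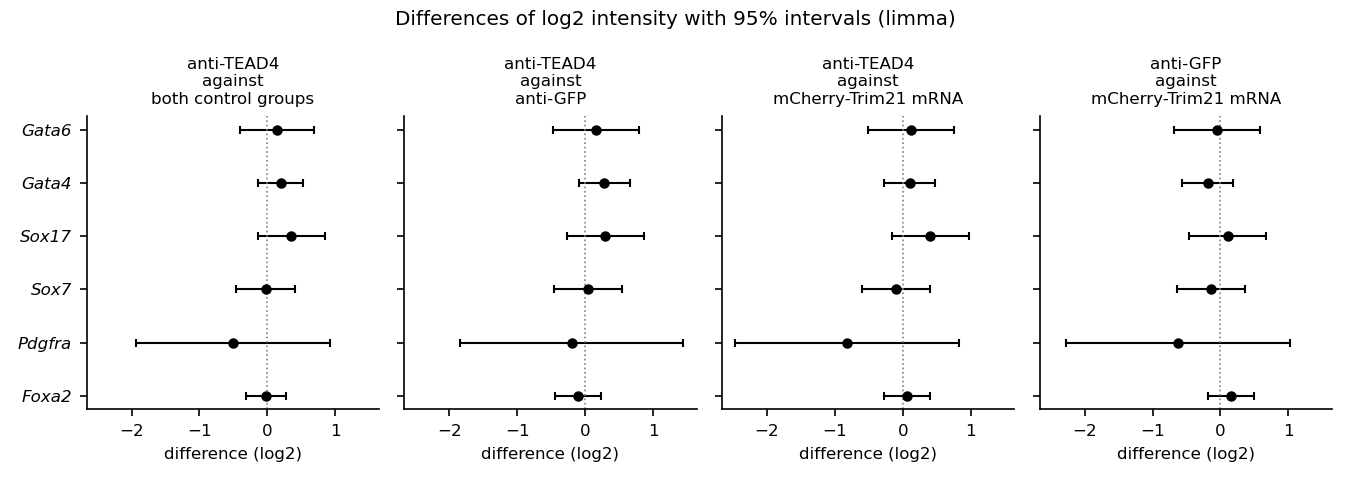
Differences of log2 intensity (points) with their 95% intervals from limma (bars) for the 6 regulators in 4 comparisons, with 0 marked by a dotted line. Every interval includes 0, and that of Pdgfra is the widest, from −1.94 to 0.92 for anti-TEAD4 against both control groups.

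The signals that precede these regulators were read from 18 of 21 genes of FGF and PDGF signalling. Against both control groups none passed the adjusted threshold in limma, while 0 had an unadjusted p under 0.05 with higher signal and 3 with lower signal, and the list median was −0.18. Over all 30178 genes the same counts were 1227 with higher and 1342 with lower signal. Fgf4, the ligand, measured 5.46 and 5.38 in the anti-TEAD4 pools, 5.03 and 4.68 in the anti-GFP pools, and 4.64 and 5.34 in the mCherry-Trim21 mRNA pools, and was the 1 gene of the list above all controls (log2 difference 0.50, SE 0.24, limma adjusted p = 0.617). The mCherry-Trim21 mRNA replicate b value came close to the anti-TEAD4 values. Fgfr1, the receptor carried by all inner cells, measured 9.40 and 9.42 with anti-TEAD4, 9.36 and 9.42 with anti-GFP, and 9.60 and 9.68 with mCherry-Trim21 mRNA (difference −0.11). Fgfr2, the receptor of primitive endoderm precursors and of trophectoderm, measured 7.42 and 8.23 with anti-TEAD4, 8.43 and 8.18 with anti-GFP, and 8.43 and 8.58 with mCherry-Trim21 mRNA (difference −0.58, SE 0.25, limma adjusted p = 0.595). Its lower value was again in anti-TEAD4 replicate a. Pdgfa, a ligand of PDGFRA, measured 6.35 and 6.51 with anti-TEAD4, 6.57 and 6.73 with anti-GFP, and 6.61 and 6.47 with mCherry-Trim21 mRNA (difference −0.17).

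There were 4 of the 18 genes of that list below all controls in both anti-TEAD4 pools, where the share of all genes was 7.68%. Dusp6, a phosphatase that ERK signalling induces and that acts back on ERK, measured 5.42 and 5.36 with anti-TEAD4, 6.58 and 6.32 with anti-GFP, and 6.31 and 6.13 with mCherry-Trim21 mRNA (difference −0.95, SE 0.14, limma adjusted p = 0.249). Sos1, the exchange factor that links FGF receptors to RAS, measured 8.04 and 7.94 with anti-TEAD4, 8.81 and 8.75 with anti-GFP, and 8.87 and 8.61 with mCherry-Trim21 mRNA (difference −0.77, SE 0.14, limma adjusted p = 0.310). The remaining pair were the receptors Fgfr3 (difference −0.57, SE 0.19) and Fgfr4 (difference −0.42, SE 0.17, within the background in anti-TEAD4 replicate a). These genes are not particular to the inner cell mass, and the trophectoderm list was lower in the same pools. Its part in these values was not tested.

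Genes of the differentiating primitive endoderm were measured for 29 of 30 list entries, with 17 above background in all pools and 5 in none. In limma, 0 passed the adjusted threshold against both control groups, with 2 at an unadjusted p under 0.05 and higher signal and 5 with lower signal. Over all 30178 genes these counts were 1227 with higher and 1342 with lower signal. The list median was 0. There were 4 genes above all controls, a share near the 11.4% of all genes, and 7 below, where the share of all genes was 7.68%. Those below included the endocytic receptor Lrp2 (megalin), with 13.05 and 13.47 in the anti-TEAD4 pools, 14.99 and 14.55 in the anti-GFP pools, and 14.62 and 14.83 in the mCherry-Trim21 mRNA pools (difference −1.49, SE 0.20, limma adjusted p = 0.222). Its partner Cubn (cubilin) differed by −0.68 and the endocytic adaptor Dab2 by −0.79, with Dab2 at 10.32 and 10.40 with anti-TEAD4, 11.25 and 11.12 with anti-GFP, and 11.24 and 10.97 with mCherry-Trim21 mRNA. Megalin is also known from the trophectoderm, whose list was lower in the same pools. The part of the trophectoderm in these values was not tested. Of the genes for basement membrane and matrix proteins, Nid2 had a difference of −1.08 (limma adjusted p = 0.398) and Sparc of −0.75 (limma adjusted p = 0.501), both below all controls. The controls differed too, with anti-GFP minus mCherry-Trim21 mRNA at −0.77 for Nid2 and −0.56 for Sparc. Against anti-GFP alone the differences were −0.695 for Nid2 and −0.47 for Sparc, with 95% intervals that included 0. The laminin chain Lamb1 had a difference of 0.38 (limma adjusted p = 0.60) and exceeded the highest control by little, with 8.71 in both anti-TEAD4 pools, 8.28 and 8.03 in the anti-GFP pools, and 8.32 and 8.70 in the mCherry-Trim21 mRNA pools. The collagen chain Col4a2 had a difference of 0.29 (limma adjusted p = 0.636). Of the others above all controls, Cited1 differed by 0.56 and Snai1, a factor of epithelial to mesenchymal change, by 0.47. Snai1 was above background in only 1 of 6 pools, anti-TEAD4 replicate b. Hnf4a, a factor of the visceral endoderm, measured 5.73 and 5.79 with anti-TEAD4, 5.75 and 5.48 with anti-GFP, and 5.62 and 6.19 with mCherry-Trim21 mRNA, with a difference of 0. Lama1, a laminin chain secreted by the lineage, measured 4.28 and 4.42 with anti-TEAD4, 4.46 and 4.50 with anti-GFP, and 4.48 and 4.54 with mCherry-Trim21 mRNA, at the edge of the background (difference −0.15, SE 0.12).

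**Figure D4:**
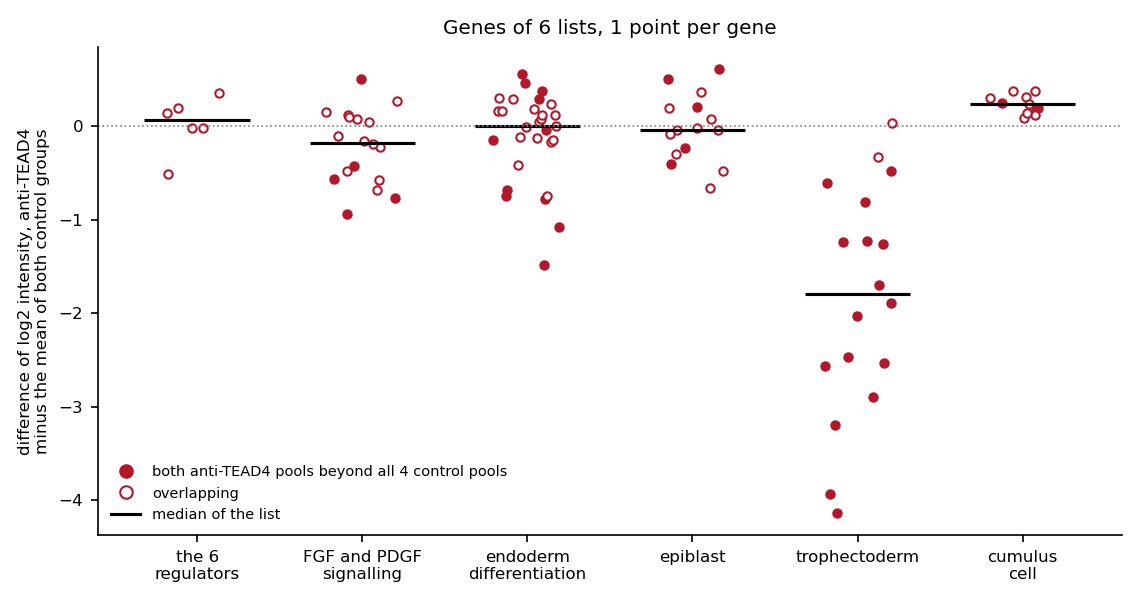
Difference of log2 intensity between the anti-TEAD4 group and the mean of both control groups for each measured gene of 6 lists (1 point per gene), filled where both anti-TEAD4 pools lay beyond all 4 control pools and open where they overlapped, with the list median as a black line. All 6 regulators are open points around a median of 0.06, whereas 16 of 18 trophectoderm genes are filled points below 0. The lists were chosen with earlier results of these data known.

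Relatives of the regulators were examined as well, since they share families without marking this lineage. Of 13 such genes, Gata3, a GATA factor of the trophectoderm that is also on the trophectoderm list, measured 7.37 and 6.98 with anti-TEAD4, 8.36 and 8.34 with anti-GFP, and 8.57 and 8.33 with mCherry-Trim21 mRNA (difference −1.23, SE 0.17, limma adjusted p = 0.222). Gata2 was likewise below all controls (difference −0.45, SE 0.14, limma adjusted p = 0.511), and was within the background in anti-TEAD4 replicate a. The Gata3 row carries a further symbol. Gata6 itself, as given above, overlapped between the groups, and whether the GATA genes differed from one another in their response was not tested. Sox2, an SRY-related factor of the inner cell mass and epiblast, measured 9.21 and 9.22 with anti-TEAD4, 8.45 and 8.32 with anti-GFP, and 8.69 and 8.97 with mCherry-Trim21 mRNA (difference 0.61, SE 0.14, limma adjusted p = 0.400). The controls of Sox2 differed too, with anti-GFP minus mCherry-Trim21 mRNA at −0.445. The Sox2 difference was 0.385 against mCherry-Trim21 mRNA alone (95% interval −0.02 to 0.79) and 0.83 against anti-GFP (95% interval 0.42 to 1.24).

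Nanog, the epiblast factor that excludes GATA6 from the same cell, measured 16.08 and 16.81 with anti-TEAD4, 16.55 and 16.50 with anti-GFP, and 16.29 and 16.63 with mCherry-Trim21 mRNA (difference −0.05, SE 0.24, limma adjusted p = 0.949). The anti-TEAD4 values of Nanog lay on both sides of the controls. Among 15 epiblast genes, 3 were above all controls (Sox2, Fgf4 and Nodal) and 2 below (Klf4 and Zfp42), and the list median was −0.05. The shares of all genes were 11.4% above and 7.68% below, so these small counts say nothing particular about the epiblast list. Cumulus cell genes, which would mark follicular cells left on the zygotes, had a positive difference in 11 of 11 measured genes, against 18064 of all 30178 genes, with a median of 0.24, but 8 of the 11 were within the background in all pools. The median rise of this list over the control mean was 0.22 in anti-TEAD4 replicate a and 0.09 in anti-TEAD4 replicate b. For the receptor genes, the background of the array, it was 0.25 and 0.04 in the same pools. Whether any cumulus cells were present was not tested. Of 14 oocyte and early cleavage genes, 1 was above all controls, where the share of all genes was 11.4%, with a list median of 0.11.

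The patterns most like those of the detected regulators were sought among 4033 genes whose mean over the pools was above background and that had a range of at least 1 log2 unit over the 6 pools. For Gata6 these were Cby3 (Pearson r = 0.979), Cyth3 (r = 0.941) and mmu-mir-7651 (r = 0.914), all with their lowest value in anti-GFP replicate b. For Cby3 that lowest value, 4.37, was itself under the background level of the pool (4.58). For Pdgfra they were Mdrl (r = 0.985), Ate1 (r = 0.976) and Mylip (r = 0.962), all with their lowest value in anti-TEAD4 replicate a. The 6 pools share groups and arrays, and 53 of the 4033 genes exceeded r = 0.9 with Pdgfra and 5 with Gata6. For Sox17, within the background, 154 genes exceeded r = 0.9, led by Ado, Alkbh3 and Mir139, which all had their highest value in anti-TEAD4 replicate a. The genes nearest to the remaining regulators within the background were Plod2, Egln3 and Mir1983 for Gata4, Glrx, P2rx4 and Snord45b for Sox7, and Mir340, Fam151b and Abraxas1 for Foxa2.

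Promoter windows from RefSeq (GRCm38.p6, 250 bases before and 50 after a start site) were at hand for 2 of the regulators, Pdgfra with 1 window and Foxa2 with 3. They were searched on both strands for letters that these factors can bind. For TEAD factors the letters were GGAATG, which 14.7% of all 32851 windows held. For GATA factors they were AGATAA, held by 11.2%. For SOX factors they were ACAATG, held by 12.6%, and ACAATA, which differs from it in the last letter, held by 9.13%. The Pdgfra window held none of them. The Foxa2 windows held 1 match, to the GATA letters, 183 bases before 1 of its start sites, and it is printed here (chr2:148045630-148045659, minus strand, the matching letters in capitals) because GATA6 heads this gene group.
Foxa2: ctgttagccttgAGATAAtattaactttgt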

How the data were processed

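RNA from 6 pools of 10 embryos, extracted without DNase, was hybridised to the Affymetrix Mouse Transcriptome Array 1.0. The authors processed the arrays with Affymetrix Expression Console (version and genome build not given in the sources used here), and the deposited values are log2 intensities with background correction and normalization by RMA. RMA can reduce a shift shared by most genes and compresses low values towards the background. The gene medians of the deposited arrays still differed, from 4.62 to 4.83. Linear values (AU) are 2 raised to the deposited log2 value.

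Of 65956 array rows, 1 was left out because a cell held an impossible value, which made that column be read as another unit before the row was removed. Gene symbols came from the platform annotation, in which 30637 rows had 1 symbol, 2176 had several and 33142 had none; 3 list genes, Pdgfra among them, were read from rows with several symbols. The brightest row per gene gave 30178 genes. A group-means model over all 6 arrays was fitted with limma 3.58.1 in R 4.3.3 (lmFit and eBayes, 3 residual and 2.52 prior degrees of freedom), with Benjamini-Hochberg adjustment over all genes and a threshold of 0.05, and was tested on simulated data. Differences are anti-TEAD4 minus the control, or anti-GFP minus mCherry-Trim21 mRNA. Nothing says that the pools came from separate matings, so the p-values measure only the spread between these pools. With 2 pools per group their number limits the precision. The comparisons against the controls share the anti-TEAD4 arrays, and both control groups enter the joint one.

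The members and lists were chosen with earlier results of these data known. All 6 regulators are named, as are genes of direct role in the induction or differentiation of the lineage and, from each other list, up to 6 genes with the largest difference among those beyond all controls. Alternatives were other normalizations, filters, row choices, tests, a replicate block and leaving out each array.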

Additional observations from a re-analysis of the deposited data

How the results depend on the processing

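No regulator passed the adjusted threshold under any of 362 refits of their differences (lowest adjusted p 0.0666), although 25 had the other sign. Among these, quantile normalization and median centring turned anti-TEAD4 minus mCherry-Trim21 mRNA to −0.033 and −0.010 for Gata4 and to −0.078 and −0.050 for Foxa2, and anti-TEAD4 minus anti-GFP to −0.024 and −0.065 for Sox7, all within the background; the methods' t-test on linear intensities gave 0.052 for Pdgfra against anti-GFP. Median centring moved the median of all genes against both control groups to −0.05, from 0.06 as deposited. Leaving out 1 array at a time gave, against both control groups, −0.035 to 0.32 for Gata6, −0.22 to 0.17 for Sox7, −1.45 to 0.43 for Pdgfra and −0.045 to 0.005 for Foxa2. Against mCherry-Trim21 mRNA it gave −0.29 to 0.10 for Sox7, −1.76 to 0.12 for Pdgfra and −0.01 to 0.21 for Gata4, and against anti-GFP −0.15 to 0.24 for Sox7, −0.19 to 0.52 for Gata6 and −1.14 to 0.74 for Pdgfra. For anti-GFP minus mCherry-Trim21 mRNA it gave −0.01 to 0.23 for Sox17, −0.29 to 0.005 for Sox7 and −0.40 to 0.31 for Gata6. It placed 0 to 3 of the 6 regulators outside the range of the controls, which is easier to meet with fewer pools. The share of all genes was not computed for these runs, so this count says nothing particular about the regulators.

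With limma 0 of 30178 genes passed in each comparison; 2569 had an unadjusted p under 0.05 against both control groups. Without anti-TEAD4 replicate b, the lone anti-TEAD4 pool was assumed to vary like the controls, so the genes called in that fit are not counted here. The methods' t-test, adjusted, called 9 genes for anti-TEAD4 against mCherry-Trim21 mRNA, 5 for anti-TEAD4 against anti-GFP and 10 between the controls. Unadjusted, it called 2 regulators between the controls. The share of all genes it called without adjustment was not computed, so that count says nothing particular about the regulators. Quantile normalization called 1 gene against both control groups. The replicate letters were not used to pair the pools in the main fit. Deviations of same-lettered pools correlated at −0.25, 0.21 and −0.51 between the groups. With 2 pools per group these values cannot show whether any pools shared a batch. With a replicate block Pdgfra remained at −0.51 (SE 0.30, limma adjusted p = 0.702) against both control groups, and the block changed no call. The filter on dim genes removed 4 regulators, for which it gives no value. A fit of only the groups compared is the same fit for both control groups and was not run separately.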

Other observations

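The antisense transcript Gata6os, which starts beside Gata6 and was looked up after its values had been seen, measured 8.34 and 8.48 log2 units in the anti-TEAD4 pools, 8.13 and 7.87 in the anti-GFP pools, and 7.97 and 7.77 in the mCherry-Trim21 mRNA pools. Both anti-TEAD4 pools were above all 4 controls, unlike those of Gata6 itself. The log2 difference from both control groups was 0.48 (SE 0.15, limma adjusted p = 0.511), which did not pass the threshold, and 11.4% of all genes had both anti-TEAD4 pools above the controls.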
